A study of Homo sapiens with 9 samples.

Results

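The small nucleolar RNA (snoRNA) host genes are long non-coding RNA genes whose introns carry snoRNAs. They were taken as every gene of the deposited expression table named SNHG followed by a number, together with GAS5 and ZFAS1. This gave 30 of 60612 genes, 28 of them named SNHG, and the table classes all 30 as lncRNA. The name rule used no expression value, but the hosts were chosen with earlier results of these data known. RNA had been sequenced from MV4-11, a human acute myeloid leukaemia cell line, in 9 libraries at 72 h, in a study of CD36 and of resistance to hypomethylating drugs. Per the labels, the 3 libraries titled KO1 are wild type cells given vehicle. The 3 titled NC1 are wild type cells given decitabine, a drug that is built into DNA and depletes DNA methyltransferases, and the 3 titled NCO are CD36 knockdown cells given decitabine. No group was labelled as CD36 knockdown with vehicle. The labels do not say how the knockdown was made, whether it is 1 clone, or whether replicates were separate cultures, so p-values measure only the spread between these libraries.

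snoRNA host genes are transcribed and spliced like other genes, and their introns are trimmed to release snoRNAs. Box C/D snoRNAs guide methylation of ribose and H/ACA snoRNAs guide the change of uridine to pseudouridine, mostly in ribosomal RNA, while the related scaRNAs act on spliceosomal RNAs in Cajal bodies. Many hosts begin transcription at a run of pyrimidines, as ribosomal protein genes do, and several spliced host RNAs are degraded in the cytoplasm by nonsense-mediated decay. The level of a spliced host RNA therefore need not follow that of the snoRNAs made from its introns.

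The small RNAs themselves stood at or near 0 in most cases, and the values below are those of the host genes. In the table, 143 small RNA genes lay within the host genes, 49 of them at 0 in all 9 libraries and 6 reaching 1 FPKM in any library. GENCODE 29 places 84 small RNA genes in SNHG14 alone, so much of this count may come from that host. FPKM is a fragment count divided by transcript length and library size. The 3 examples from GENCODE 29 (GRCh38) are box C/D snoRNAs that hold both motifs marked below. SNORD25 and SNORD27 lie in SNHG1, the host with the largest NC1 minus KO1 difference, and SNORD104 lies in SNHG25 and had the highest level. SNORD26 and SNORD28, also in SNHG1, hold the letters CTGA but not TGATGA, and are not printed. The capitals mark a C box (TGATGA) and a D box (CTGA), the short motifs by which box C/D snoRNAs are recognised, each written 5′ to 3′ on its own strand.
SNORD25: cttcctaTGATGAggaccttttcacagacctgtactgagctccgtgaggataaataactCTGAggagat
SNORD27: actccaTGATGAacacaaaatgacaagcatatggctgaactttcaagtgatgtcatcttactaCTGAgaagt
SNORD104: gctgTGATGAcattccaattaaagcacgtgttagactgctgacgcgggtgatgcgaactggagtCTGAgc
SNORD25 is 69 bases long at chr11:62855564-62855632 and SNORD27 is 72 bases long at chr11:62855012-62855083, both on the minus strand. SNORD104 is 70 bases long at chr17:64146083-64146152 on the plus strand. The SNORD25 gene stood at 0.0884 FPKM or less in every library and SNORD27 at 0.112 or less, and their host reached 136 FPKM. Whether the libraries retained RNAs as short as these is not known here. Low values therefore do not show that the snoRNAs were absent or were not made from the host, and the 2 levels are not comparable. SNORD104 had means (SD, n = 3) of 13.4 ± 0.931 FPKM in the KO1 libraries, 16.3 ± 2.05 in those of NC1 and 13.2 ± 2.78 in those of NCO.

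The start sites of the hosts are shown because a feature that the name rule did not use was more frequent there than in promoters at large. RefSeq gave a promoter for 26 of the 30 (GRCh38.p14, 250 bases before to 50 after the start), and the letters CTTTT or CTTTC were searched within 10 bases of the start on either side, on the gene's own strand. They occurred in 9 of 26 host promoters (34.62%) and in 5.633% of all 35116 RefSeq promoters. On the opposite strand the shares were 3.846% and 3.46%, and anywhere in the promoter on the gene's strand 61.54% and 50.74%. The windows below hold 20 bases before the RefSeq start and 20 from it, with the match in capitals.
SNHG5: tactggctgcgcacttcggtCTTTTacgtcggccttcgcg
SNHG32: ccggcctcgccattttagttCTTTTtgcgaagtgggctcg
SNHG19: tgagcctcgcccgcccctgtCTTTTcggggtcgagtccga
ZFAS1: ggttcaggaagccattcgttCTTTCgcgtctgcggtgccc
SNHG4: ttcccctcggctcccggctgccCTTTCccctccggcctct
SNHG12: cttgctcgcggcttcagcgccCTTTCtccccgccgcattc
SNHG16: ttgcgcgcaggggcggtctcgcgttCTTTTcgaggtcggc
SNHG8: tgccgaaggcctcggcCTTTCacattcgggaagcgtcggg
SNHG29: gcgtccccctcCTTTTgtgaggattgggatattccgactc
In SNHG5, SNHG32, SNHG19 and ZFAS1 the match begins at the RefSeq start base itself. The windows lie at chr6:85678714-85678753 (minus strand) for SNHG5, chr6:31834896-31834935 (plus) for SNHG32, chr16:2155339-2155378 (minus) for SNHG19 and chr20:49278622-49278661 (plus) for ZFAS1. Those of SNHG4, SNHG12 and SNHG16 lie at chr5:139274081-139274120 (plus), chr1:28581854-28581893 (minus) and chr17:76557744-76557783 (plus). Those of SNHG8 and SNHG29 lie at chr4:118278742-118278781 and chr17:16438967-16439006, both plus. For comparison, SNHG1 and SNHG7, the hosts with the largest NC1 minus KO1 differences, hold other letters there, while SNHG5, with the largest NCO minus KO1 difference, has the match.
SNHG1: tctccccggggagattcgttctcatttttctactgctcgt
SNHG7: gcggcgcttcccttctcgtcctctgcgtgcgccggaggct
They lie at chr11:62855866-62855905 and chr9:136728165-136728204, both on the minus strand, and the searched letters do not occur in them within 10 bases of the start. Both windows hold other runs of C and T across the start, which the search did not count. An E-box (CACGTG, a palindrome) and TATAAA were searched on both strands of the promoter. SNHG7 holds an E-box and, on its own strand, a TATAAA. SNHG19 also holds TATAAA on its own strand, whereas SNHG1 and SNHG11 hold TATAAA on the opposite strand. An E-box was found in 2 of 26 host promoters (7.692%) and 7.256% of all promoters, and TATAAA in 4 (15.38%) and 11.53%. A match of letters is a description of the promoter and not a measurement of binding or of start site use.

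The host genes differed widely in level, and a few held most of the sum. In the KO1 libraries all 30 summed to 3412 ± 81.5 FPKM (SD, n = 3), 0.650% of all FPKM. SNHG29, GAS5, SNHG32 and SNHG6 together held 74.0% of the host total in KO1, 74.4% of it in NC1 and 75.7% of it in NCO. SNHG29 came first in every group, at 1064 ± 22.2 FPKM in KO1, and its libraries did not overlap those of the next host. GAS5 and SNHG32 followed at 605 ± 22.2 and 605 ± 13.7 and could not be ordered, since their libraries overlapped in all 3 groups. SNHG6, SNHG8, ZFAS1 and SNHG1 came next in KO1, each apart from its neighbour, at 251, 219, 180 and 132 FPKM. SNHG7, SNHG5 and SNHG19 stood between 60.8 and 63.6 FPKM and overlapped. A middle range of SNHG25, SNHG16, SNHG15, SNHG9, SNHG4, SNHG3, SNHG12 and SNHG17 ran from 29.8 to 11.5 FPKM. The order below SNHG17 in KO1 ran from SNHG14 at 5.48 to SNHG22 at 1.70 FPKM, and most of these neighbours overlapped.

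The level needed for testing was not reached by 4 hosts. SNHG28 ranged from 0.107 to 0.862 FPKM, SNHG31 from 0 to 0.219 and SNHG27 from 0 to 0.0443, and SNHG18 was listed at 0 in every library. The other 26 had at least 1 FPKM in at least 3 of the 9 libraries, and 24 had it in all 9. SNHG21 missed 1 FPKM in a single NCO library, at 0.985. SNHG22 reached it in 2 KO1 libraries and 1 NCO library, so that it was admitted mostly through the group in which it was highest.

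**Figure D1:**
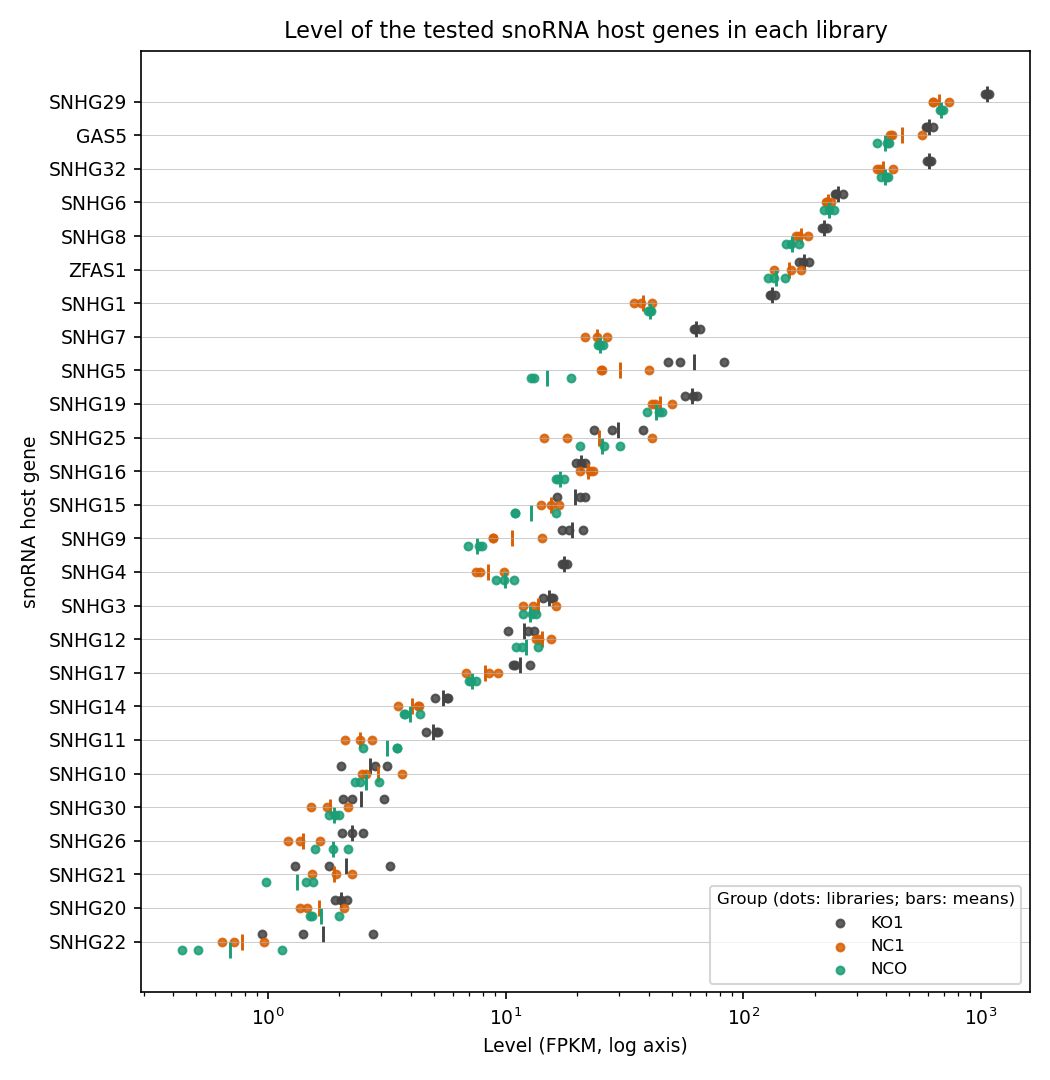
FPKM of the 26 tested snoRNA host genes on a log axis, with a dot for each of the 3 libraries of KO1, NC1 and NCO and a bar at each group mean, sorted by the KO1 mean. SNHG1 and SNHG7 show the KO1 dots far to the right of the other groups, and in SNHG5 the 3 groups stand in 3 steps.

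Several facts of the libraries bear on all values. The FPKM of a library summed to between 493061 and 530097, and the sequencing depth is unknown. Mitochondrially encoded genes took 14.5 to 15.3% of the sum in KO1 and 17.4 to 18.5% in NCO, but 17.6%, 17.3% and 14.5% in NC1 replicates 1, 2 and 3. NC1 replicate 3 was the highest NC1 library for 22 of the 26 tested hosts (84.6%) and for 48% of all tested genes. CD36 had a mean of 0.126 ± 0.0231 FPKM for KO1, 2.18 ± 0.373 for NC1 and 2.49 ± 0.341 for NCO. It was thus not lower in the libraries labelled CD36 knockdown than in NC1 (exact two-sided permutation p = 0.4, where the smallest possible p is 0.1), and the stem KO1 stands on libraries labelled wild type with vehicle. Groups are therefore named by stem. Of 10 myeloid identity genes, 9 had a mean of at least 1 FPKM in every group. Erythroid and megakaryocytic markers had 0 of 6, lymphoid markers 1 of 6 (NCAM1), and stromal or epithelial markers 1 of 6 in KO1 (PECAM1) and 3 of 6 in NC1 and NCO (with KRT8 and COL1A1). CD3E, CD3D, HBA1 and PF4 were listed at 0 in every library.

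The first comparison, NC1 against KO1, asks what differs between wild type cells with decitabine and with vehicle. The host genes were lower in NC1. Of the 26 tested, 15 were lower, 0 higher and 11 not called in limma at an adjusted p under 0.05. Among all 12586 genes tested 47.2% were called, 18.3% lower and 28.9% higher. With mitochondrial genes removed, 14 hosts were lower and 2 higher (SNHG12 and SNHG16). Over all genes, 72.3% of the calls were then higher, in place of 61.3%. The median difference was −0.38 on the log2(FPKM + 1) scale over the hosts and 0.06 over all genes. The level summed over the hosts, which was not tested, was 3412 ± 81.5 FPKM in KO1 and 2354 ± 239 in NC1, with NC1 libraries at 2229, 2204 and 2630. As a share of the FPKM outside mitochondrial genes this was 0.764% ± 0.0126 in KO1 and 0.554% ± 0.0458 in NC1. In bulk RNA, fewer cells with a transcript and less of it per cell cannot be told apart. Among the other 917 tested lncRNA genes 114 were higher and 212 lower, with a median of −0.07.

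Among the hosts of box C/D snoRNAs, SNHG1 (ENSG00000255717, chr11:62851984-62855953, minus strand) differed most. SNHG1 contains SNORD22, SNORD25, SNORD26, SNORD27, SNORD28 and SNORD30. Its levels were 136, 129 and 131 FPKM in the KO1 libraries, 34.7, 37.1 and 41.3 in those of NC1 and 40.6, 41.1 and 39.8 in those of NCO. Every library of NC1 and NCO lay far below the lowest KO1 library, and NC1 and NCO overlapped. The NC1 minus KO1 difference was −1.79 (SE 0.0588, limma adjusted p = 1.43e-09), a ratio of means of 0.285. In NC1 it stood beside SNHG19 in the order of levels, with overlapping libraries, whereas in KO1 SNHG19 was at 60.8 FPKM and apart from it.

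SNHG5 (ENSG00000203875, chr6:85650491-85678932, minus strand), host of SNORD50B, varied between the libraries of a group. It stood at 54.2, 83.4 and 48.4 FPKM in the KO1 libraries, 25.2, 25.6 and 40.1 in those of NC1 and 12.8, 13.2 and 18.8 in those of NCO. The 3 groups did not overlap and stood in the order KO1, NC1, NCO. The difference of NC1 from KO1 was −1.0 (SE 0.266, limma adjusted p = 0.0172). That call was lost without NC1 replicate 1 (limma adjusted p = 0.0605) or without NC1 replicate 2 (0.0581).

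The most abundant box C/D hosts were lower by a smaller factor. SNHG29 (ENSG00000175061, chr17:16438767-16478678, plus strand), host of SNORD49A, SNORD49B and SNORD65, stood at 1062, 1087 and 1042 FPKM in the KO1 libraries, 630, 631 and 736 in those of NC1 and 674, 680 and 692 in those of NCO. All NC1 and NCO libraries lay below all KO1 libraries, and the NC1 minus KO1 difference was −0.68 (SE 0.058, limma adjusted p = 3.77e-06). SNHG32 (ENSG00000204387, chr6:31834608-31839766, plus strand), host of SNORD48 and SNORD52, stood at 604, 620 and 592 FPKM in the KO1 libraries, 366, 377 and 426 in those of NC1 and 407, 379 and 398 in those of NCO. It showed the same separation, with a difference of −0.64 (SE 0.0573, limma adjusted p = 5.72e-06). GAS5 (ENSG00000234741, chr1:173858559-173868882, minus strand) is a growth arrest transcript known as a host of box C/D snoRNAs and as a decoy of the glucocorticoid receptor. It stood at 595, 631 and 590 FPKM in KO1 and 425, 414 and 565 in NC1. NC1 replicate 3 was close to KO1, and the difference was −0.38 (SE 0.102, limma adjusted p = 0.0104).

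SNHG19, SNHG26, SNHG14 and SNHG6 were also called lower. SNHG19, host of SNORD60, fell from 60.8 ± 3.48 to 44.6 ± 4.7 FPKM, and SNHG26, host of SNORD93, from 2.27 ± 0.231 to 1.41 ± 0.225. SNHG14 is an imprinted transcript on chromosome 15 that carries the SNORD115 and SNORD116 clusters and runs antisense to UBE3A. It fell from 5.48 ± 0.396 to 4.05 ± 0.449 FPKM and shares its strand with SNRPN, which stood at 121 ± 6.54 FPKM in KO1 and 96.9 ± 2.79 in NC1. SNHG6, host of SNORD87, fell from 251 ± 11.5 to 228 ± 6.28 FPKM (limma adjusted p = 0.0376), a call lost under 9 of 18 alternatives, with the adjusted p between 0.00209 and 0.228. ZFAS1, host of SNORD12, SNORD12B and SNORD12C, stood at 180 ± 8.65 and 156 ± 20.3 FPKM and was not called. SNHG16, host of SNORD1A, SNORD1B and SNORD1C, stood at 20.7 ± 0.926 and 22.2 ± 1.48 and was not called. SNHG30, host of SNORD7, stood at 2.47 ± 0.535 and 1.82 ± 0.328 and was not called.

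Among the hosts of H/ACA snoRNAs, SNHG7 (ENSG00000233016, chr9:136721366-136728184, minus strand), host of SNORA17A and SNORA17B, differed most. Its levels were 62.9, 65.6 and 62.2 FPKM in the KO1 libraries, 24.4, 21.6 and 26.8 in those of NC1 and 25.7, 25 and 24.4 in those of NCO. NC1 and NCO overlapped each other and lay far below KO1, and the NC1 minus KO1 difference was −1.36 (SE 0.068, limma adjusted p = 4.78e-08). SNHG4 (ENSG00000281398, chr5:139274102-139284899, plus strand), host of SNORA74A and SNORA74D, stood at 17.3, 17.5 and 18.2 FPKM in KO1 and 7.52, 7.79 and 9.89 in NC1. The groups were apart, with a difference of −1.0 (SE 0.0933, limma adjusted p = 7.73e-06). SNHG4 shares its strand and position with MATR3, an RNA-binding nuclear matrix protein gene, which stood at 16.4 ± 3.84 FPKM in the KO1 libraries, 8.42 ± 2.65 in those of NC1 and 21.3 ± 2.03 in those of NCO.

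The short host SNHG9 (ENSG00000255198, chr16:1964959-1965509, plus strand), which carries SNORA78, stood at 17.3, 18.4 and 21.3 FPKM in KO1 and 8.88, 8.87 and 14.3 in NC1. NC1 replicate 3 lay between the other NC1 libraries and KO1, and the difference was −0.80 (SE 0.153, limma adjusted p = 0.00167). SNHG11, host of SNORA60 and SNORA71E, stood at 5.1, 4.61 and 5.21 FPKM in KO1 and 2.44, 2.75 and 2.11 in NC1. These groups were apart as well, with a difference of −0.80 (SE 0.11, limma adjusted p = 0.000143). SNHG17, host of SNORA71A to SNORA71D, fell from 11.5 ± 1.04 to 8.2 ± 1.26 FPKM. SNHG8, host of SNORA24, fell from 219 ± 5.37 to 176 ± 10.7 FPKM. SNHG3, host of SNORA73A and SNORA73B, stood at 15.3 ± 0.749 and 13.7 ± 2.34, and SNHG15, host of SNORA9, at 19.6 ± 2.76 and 15.5 ± 1.35. Neither was called.

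The hosts of scaRNAs gave no call in this comparison. SNHG10 (SCARNA13) stood at 2.68 ± 0.585 FPKM in KO1 and 2.9 ± 0.652 in NC1, SNHG20 (SCARNA16) at 2.03 ± 0.125 and 1.64 ± 0.392, SNHG21 (SCARNA15) at 2.13 ± 1.02 and 1.91 ± 0.359, and SNHG22 (SCARNA17) at 1.7 ± 0.944 and 0.774 ± 0.167. All 4 were among the lowest tested hosts. In KO1 the spread between libraries was wide for the level in SNHG21 and SNHG22 but narrow in SNHG20. SNHG26, at a like level in KO1, was called lower, and whether level bears on the lack of calls was not tested. By kind of named small RNA, 8 of 11 tested members with box C/D alone were lower (median −0.44). The counts were 6 of 8 with H/ACA alone (median −0.62) and 0 of 4 with scaRNA alone (median −0.14). Small RNAs without a named kind, as also lie in SNHG1, SNHG7, SNHG14, SNHG17, SNHG19 and SNHG22, were left out. GAS5, called lower, had 0 small RNA genes placed within it by GENCODE and so entered none of these counts. Differences between these kinds were not tested.

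SNHG12 and SNHG25 carry snoRNAs of both kinds and were not called. SNHG12 stood at 13.2, 12.4 and 10.2 FPKM in KO1 and 13.5, 15.5 and 13.9 in NC1. It was the single host with every NC1 library above every KO1 library, where 34.5% of all genes had this order, and its difference was 0.24 (SE 0.1, limma adjusted p = 0.0657, called under 3 of 18 alternatives). In the opposite order, 15 of 26 hosts had every NC1 library below every KO1 library, against 21.9% of all genes. SNHG25 stood at 23.7, 28.1 and 37.7 FPKM in KO1 and 14.5, 18.1 and 41.3 in NC1, where NC1 replicate 3 exceeded every KO1 library (difference −0.38, SE 0.387, limma adjusted p = 0.454).

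The ratio of NC1 to KO1 means was 0.5 or less for 6 hosts, SNHG1, SNHG7, SNHG22, SNHG4, SNHG5 and SNHG11. The difference was −1.79 to −0.14 over the 7 hosts with at least 100 FPKM in KO1, of which 6 were lower. It was −1.36 to 0.24 over the 11 hosts between 10 and 100 FPKM, of which 6 were lower. Over the 8 tested hosts under 10 FPKM it was −0.80 to 0.09, and 3 were lower. The KO1 level enters both this grouping and the difference, and the log2(FPKM + 1) scale understates differences of low hosts. A trend with level can therefore not be read from these ranges. Hosts with the searched letters at the start were lower in 6 of 9 cases (median −0.44) and those with a RefSeq promoter without them in 7 of 13 (median −0.38). The 2 sets were not tested against each other. They depend on the letters searched, so a host without them may start at other pyrimidines, and on the RefSeq start. That start lay up to 1259 bases (SNHG12) from the gene start of the expression data in the first set and up to 154975 (SNHG14) in the second. Under all 18 alternatives of processing, 13 of the 15 calls held, the exceptions being SNHG5 and SNHG6. Without NC1 replicate 3, 19 hosts were lower and the median was −0.52. Over all genes the median was then 0.05, and 57.8% of the calls were higher, in place of 61.3%.

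**Figure D2:**
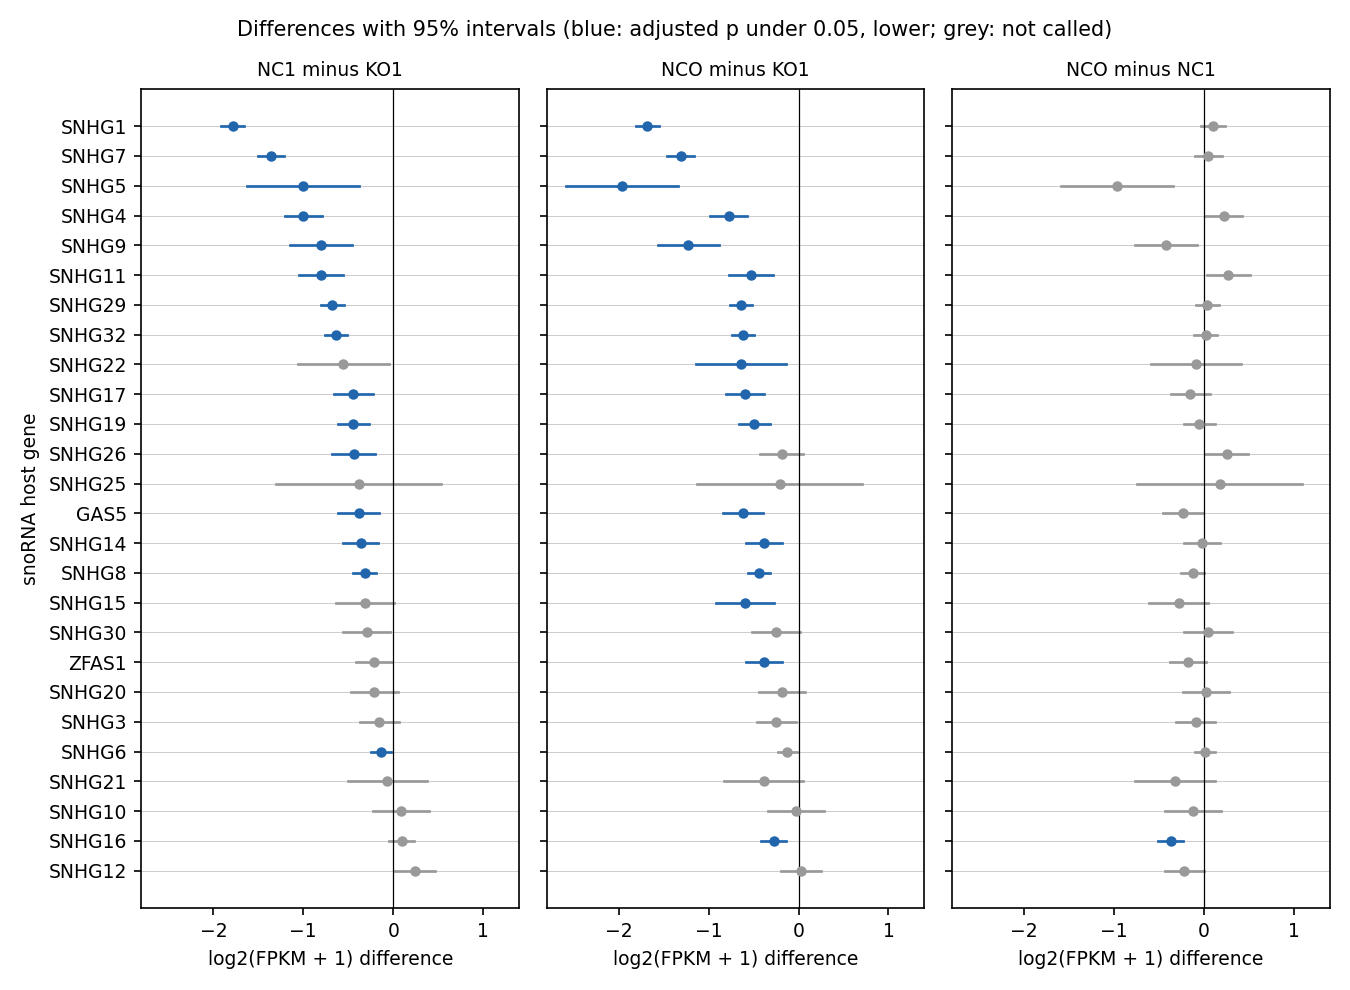
Differences on the log2(FPKM + 1) scale for the 26 tested snoRNA host genes, with 95% confidence intervals from limma, in the panels NC1 minus KO1, NCO minus KO1 and NCO minus NC1, sorted by the first. Blue points are lower at an adjusted p under 0.05: 15 in the first panel, 17 in the second and 1 in the third, with 0 higher in any.

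NCO was compared with NC1, both decitabine groups, to ask what goes with the label of CD36 knockdown. Most host genes stood at the level of NC1 within the spread of the libraries. Of 26 tested, 1 was lower, 0 were higher and 25 were not called. Among all genes 14.7% were called, 8.62% lower and 6.12% higher. The median was −0.07 over the hosts and 0.01 over all genes. The summed host level was 2246 ± 38.9 FPKM in NCO, with a share outside mitochondrial genes of 0.554% ± 0.0115, next to 0.554% ± 0.0458 in NC1. At an adjusted p above 0.05 a difference is not shown to be absent: the 95% intervals ran from −0.09 to 0.17 for SNHG29 and from −0.03 to 0.23 for SNHG1, but from −0.74 to 1.1 for SNHG25.

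The called host was SNHG16 (ENSG00000163597, chr17:76557764-76565348, plus strand). It stood at 20.5, 22.6 and 23.4 FPKM in NC1 and 17.7, 16.7 and 16.3 in NCO, and in KO1 at 19.7, 20.7 and 21.6. NCO was thus apart from both other groups, which overlapped. The NCO minus NC1 difference was −0.37 (SE 0.0625, limma adjusted p = 0.0042), and it was called under all 18 alternatives.

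SNHG5 had the largest difference between NCO and NC1, and it lay at the threshold. The libraries given above did not overlap, the ratio of means was 0.493, and the difference was −0.96 (SE 0.266, limma adjusted p = 0.052). It was called under 8 of 18 alternatives, over which the adjusted p ran from 0.0286 to 0.148. In all, 4 of 26 hosts had every NCO library below every NC1 library (SNHG5, SNHG9, SNHG16 and GAS5), against 16.8% of all genes, and 0 had the opposite order, against 17.5%. SNHG9 stood at 7.72, 6.94 and 7.99 FPKM in NCO, below the lowest NC1 library (difference −0.42, SE 0.153, limma adjusted p = 0.0925). GAS5 stood at 367, 411 and 404 FPKM in NCO, just below NC1 replicates 1 and 2 (difference −0.23, SE 0.102, limma adjusted p = 0.149).

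Of the 26 tested hosts, 11 stood higher in NCO than in NC1, none with a call. SNHG4 was at 10.8, 9.81 and 9.11 FPKM in NCO (difference 0.22, SE 0.0933, limma adjusted p = 0.133) and SNHG11 at 2.52, 3.49 and 3.49 (0.27, SE 0.11, limma adjusted p = 0.119). SNHG26 was at 1.58, 1.87 and 2.17 FPKM in NCO (0.25, SE 0.108, limma adjusted p = 0.14). None of the 3 changed sign under any of 18 alternatives. SNHG4 was called under 2 of them and SNHG11 without NCO replicate 1 (limma adjusted p = 0.0397), whereas SNHG26 was called under none. Calls of hosts thus came and went with scaling and with 1 library. With quantile normalization 4 hosts were higher (SNHG1, SNHG6, SNHG29 and SNHG32) and 2 lower, and with mitochondrial genes removed 2 were higher (SNHG1 and SNHG4) and 2 lower. Without NC1 replicate 3, SNHG1 and SNHG4 were higher, 1 host was lower and the median was 0.02.

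**Figure D3:**
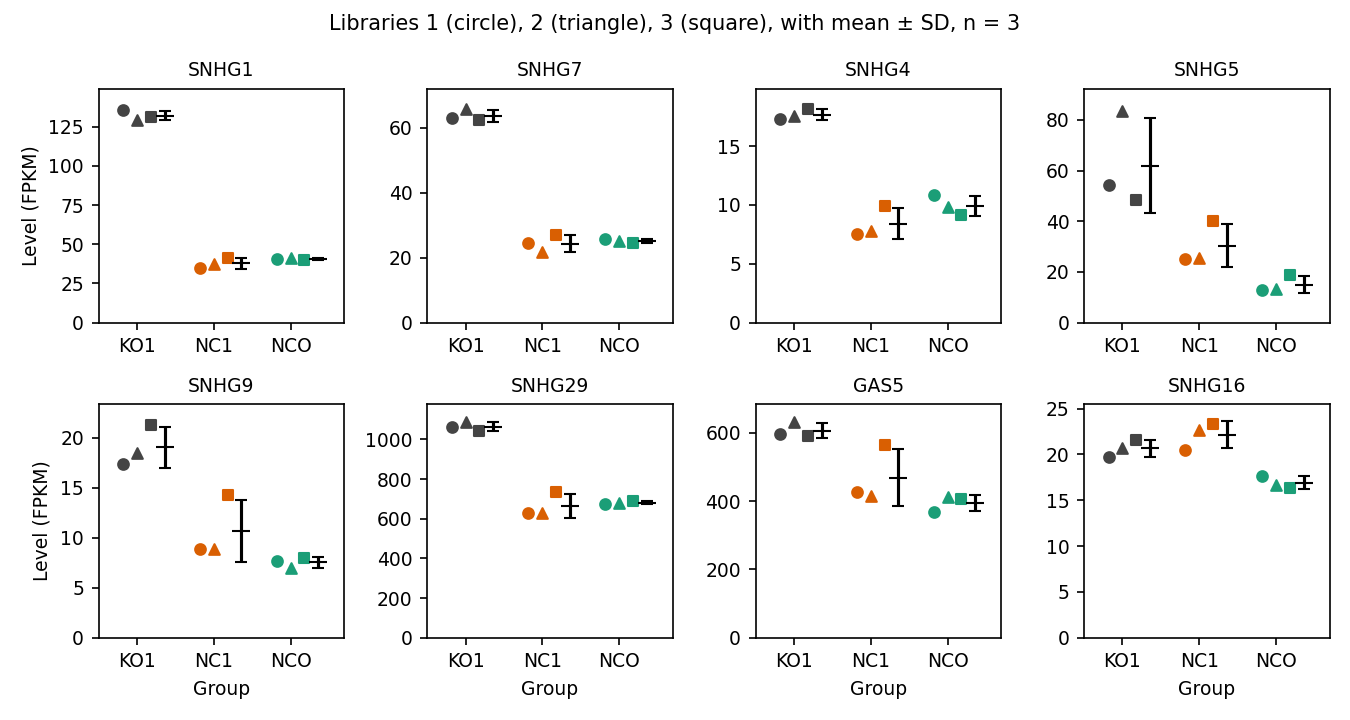
FPKM of 8 snoRNA host genes in each library of KO1, NC1 and NCO, with the mean and SD of each group (n = 3) beside the points and every axis starting at 0. SNHG1, SNHG7, SNHG4 and SNHG29 show NC1 and NCO near each other and below KO1, SNHG5 and SNHG9 step down through the groups, and SNHG16 is lower in NCO.

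NCO was also compared with KO1, which differ in both the drug and the label of knockdown. This comparison shares KO1 with the first and NCO with the second, so its values are given side by side with theirs and not as a further sign of the same difference. Of 26 tested hosts, 17 were lower, 0 higher and 9 not called in NCO. Among all genes 52.2% were called, 20.1% lower and 32.1% higher. The median was −0.47 over the hosts and 0.08 over all genes. Every NCO library lay below every KO1 library for 19 of 26 hosts, against 24% of all genes, and above for 0, against 37.2%.

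The hosts with the largest NCO minus KO1 differences were SNHG5 at −1.96 (SE 0.266, limma adjusted p = 0.000655), SNHG1 at −1.68, SNHG7 at −1.31 and SNHG9 at −1.22. For SNHG5 the ratio of means was 0.241, the lowest of any host in any comparison, and for SNHG9 it was 0.397. In KO1 SNHG5 overlapped SNHG7 and SNHG19 in level, and in NCO it overlapped SNHG16 and SNHG15. SNHG4, SNHG29, SNHG32, GAS5, SNHG17, SNHG11, SNHG19, SNHG8 and SNHG14 were also lower, with differences between −0.78 and −0.39.

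ZFAS1, SNHG15, SNHG16 and SNHG22 were called here and not in NC1 against KO1, which does not by itself show that the comparisons differ. ZFAS1, which starts beside ZNFX1 on the opposite strand, stood at 179, 171 and 189 FPKM in KO1 and 135, 151 and 127 in NCO (difference −0.39, SE 0.0907, limma adjusted p = 0.00472). SNHG15 stood at 20.6, 16.5 and 21.7 FPKM in KO1 and 11, 16.3 and 11 in NCO (−0.60, SE 0.146, limma adjusted p = 0.00633), the middle NCO library nearly reaching the lowest KO1 library. SNHG16 was lower by a smaller factor (−0.28, SE 0.0625, limma adjusted p = 0.00349), a call lost with mitochondrial genes removed (0.0567). SNHG22 was called (−0.64, SE 0.227, limma adjusted p = 0.0354) although its libraries overlapped, at 2.76, 1.4 and 0.945 FPKM in KO1 and 1.14, 0.434 and 0.507 in NCO, and the call was lost under 6 of 17 alternatives. SNHG6, called in the first comparison, stood at 230 ± 10.3 FPKM in NCO, with a difference of −0.12 (limma adjusted p = 0.0519). SNHG3 stood at 12.7 ± 0.806 FPKM in NCO (−0.25, limma adjusted p = 0.0545).

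Several hosts overlap other genes, and the files do not state whether counting used strand. Of 30 hosts, 13 overlap another gene that reaches 1 FPKM, 11 of them a gene on the opposite strand and 4 a gene on the same strand, some both, so reads of such pairs may be shared. On the same strand SNHG3 overlaps RCC1, SNHG20 overlaps SEC14L1, SNHG14 overlaps SNRPN and SNHG4 overlaps MATR3. RCC1, the exchange factor of the GTPase Ran, stood at 27.8 ± 0.361 FPKM in KO1 and 20.9 ± 0.357 in NC1. On the opposite strand, ZNFX1, an antiviral helicase gene, stood at 6.21 ± 0.0215 FPKM in the KO1 libraries, 12 ± 0.26 in those of NC1 and 12.3 ± 0.595 in those of NCO, while ZFAS1 was lower in NCO than in KO1. LRRC75A, opposite SNHG29, reached no more than 3.39 FPKM in any library, and DIPK1B, opposite SNHG7, stood at 8.74 ± 0.928 FPKM in KO1 and 11.3 ± 0.837 in NC1. SNHG1 and SNHG5 overlap no such gene.

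The genes around the hosts in the same pathway were followed as lists. The counts below stand beside the shares over all genes. In NC1 against KO1 28.9% of all genes were higher and 18.3% lower. The shares were 6.12% and 8.62% in NCO against NC1, and 32.1% and 20.1% in NCO against KO1. Outside the name rule, DANCR, the host of SNORA26, fell from 20.5 ± 1.51 FPKM in KO1 to 7.26 ± 1.04 in NC1 (−1.39, limma adjusted p = 2.13e-06), and EPB41L4A-AS1 from 14 ± 0.883 to 10.8 ± 0.498 (−0.35, limma adjusted p = 0.00102). MEG8 was listed at 0. Of 27 protein-coding hosts other than ribosomal protein genes, 5 were higher and 10 lower in NC1, with a median of −0.04, which turned to 0.02 with mitochondrial genes removed. HSPA8, a chaperone gene with box C/D snoRNAs in its introns, rose from 256 ± 6.51 to 487 ± 15.2 FPKM, and EEF2, the elongation factor that moves the ribosome, fell from 1848 ± 8.54 to 1014 ± 39.3. The non-coding and the protein-coding hosts were not tested against each other.

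A list of translation genes known to start with a pyrimidine tract, and the ribosomal protein genes, were counted in the same way. Of 16 translation genes of this kind other than ribosomal proteins, 0 were higher and 13 lower in NC1 than in KO1 (median −0.43), among them EEF1A1 (−1.06), EEF2 (−0.87), EEF1B2 (−0.82) and EIF3F (−0.62). Of 82 tested cytosolic ribosomal protein genes, 6 were higher and 57 lower, with a median of −0.26. EEF1A1 and many ribosomal protein genes have near-identical processed copies, between which reads may have been split. In NCO against NC1, 6 of the 16 translation genes were higher and 0 lower (median 0.12). EEF1A1 stood at 0.57, PABPC1 at 0.41, EIF4B at 0.33 and EEF2 at 0.30. In the same comparison 0 ribosomal protein genes were higher and 5 lower, but 8 were higher and 4 lower with mitochondrial genes removed. Against KO1, 12 of the 16 translation genes and 63 of the 82 ribosomal protein genes were lower in NCO, or 6 and 43 with quantile normalization.

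Of 22 factors of nonsense-mediated decay and the exon junction complex, 12 were higher and 2 lower in NC1 than in KO1, with a median of 0.25. Under TMM scaling, which uses trimmed means, or quantile normalization 9 were higher and 5 lower. UPF2, which bridges the exon junction complex and the helicase UPF1, rose from 2.05 ± 0.0491 to 6.33 ± 0.19 FPKM (1.27, limma adjusted p = 7.17e-08), and UPF3B from 2.35 ± 0.163 to 4.88 ± 0.502. In NCO, UPF2 stood at 3.87 ± 0.0416 FPKM, lower than in NC1 (−0.59, limma adjusted p = 0.000599), as was UPF3B (−0.39). SMG1, the kinase of UPF1, was higher in NCO than in NC1 (0.30). Against KO1, 9 of these factors were higher and 4 lower in NCO. Whether these transcripts bear on the host levels was not tested.

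Of 20 tested genes for the proteins that package and assemble snoRNAs into particles (snoRNPs), 5 were higher and 3 lower in NC1, with a median of 0.01. These counts lie near the shares over all genes, 28.9% higher and 18.3% lower. The balance of 5 and 3 turned with scaling, to 2 higher and 8 lower under TMM. NOP58, a core protein of box C/D particles, rose from 12.5 ± 0.252 to 20.7 ± 0.399 FPKM, and FBL, the methyltransferase of the same particles, fell from 130 ± 6.03 to 103 ± 1.9. In NCO against NC1, 0 were higher and 4 lower: PIH1D1 (−0.33), NOP58 (−0.32), NOP10 (−0.26) and NHP2 (−0.25). NOP10 and NHP2, core proteins of H/ACA particles, were no longer called with quantile normalization (limma adjusted p = 0.185 and 0.0544). Against KO1, 4 were higher and 7 lower in NCO, which turned to 8 higher and 4 lower with mitochondrial genes removed.

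**Figure D4:**
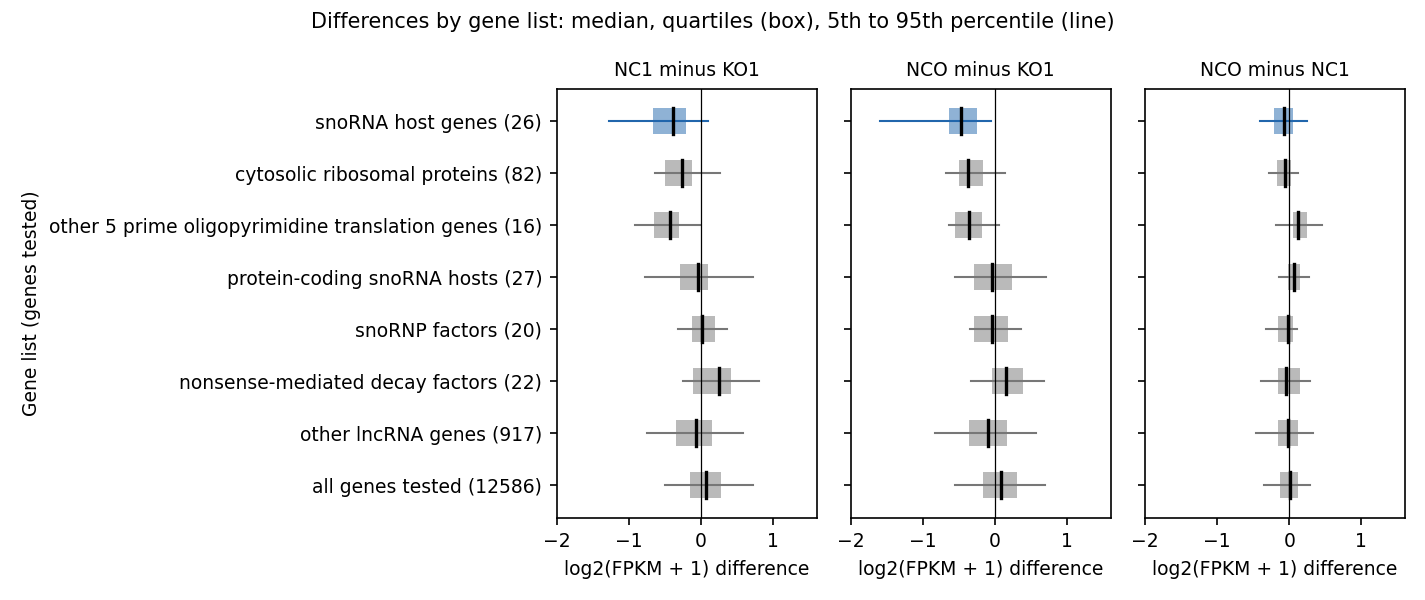
Differences on the log2(FPKM + 1) scale by gene list, with the median as a black bar, the quartiles as a box and the 5th to 95th percentile as a line, and the number of genes tested beside each name. The snoRNA host genes (blue) have medians of −0.38 in NC1 minus KO1, −0.47 in NCO minus KO1 and −0.07 in NCO minus NC1, next to 0.06, 0.08 and 0.01 over all genes.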

How the data were processed

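RNA sequencing libraries of MV4-11 cells were grouped by title stem into KO1, NC1 and NCO, with 3 libraries each. The table deposited by the authors holds 1 value per gene and library. Its header names no unit, and the values were read as FPKM because they are not whole, their sums differ between libraries, and StringTie, which writes FPKM, is named in the submitters' processing notes. The notes list, without roles, the build GRCh38 and further edgeR, HISAT2, FastQC, Trimmomatic and CASAVA 1.8. The annotation release and the use of strand in counting are not given in the sources used here. Depth is unknown: at values under 0.5 FPKM the commonest ratio between libraries held for at most 0.342% of genes, so reads were not recovered. No counting intervals are given.

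FPKM values were analysed as log2(FPKM + 1), a scale that understates differences of low genes. Of 60612 genes, 12586 had at least 1 FPKM in at least 3 of 9 libraries and entered the test, which leaves 48026 aside. A single fit to the 9 libraries was made in limma 3.58.1 (R 4.3.3) with trend and robust moderation, without a replicate block. P-values were two-sided, adjusted by Benjamini-Hochberg over all genes tested and called under 0.05. Differences are the first group minus the second, with 95% intervals, and ratios are of group means. The fit was tested on simulated data. CD36 was also tested by an exact permutation test. Alternatives were a pseudocount of 0.1, other filters, TMM scaling (a trimmed mean computed on the FPKM), quantile normalization, removal of mitochondrial genes, plain moderation, fewer groups, the block, and leaving out each library.

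All 30 hosts are accounted for. Genes of other lists are named from the 4 with the smallest adjusted p of a list in a comparison. Genes whose coordinates overlap a host are named beside it. Cytosolic ribosomal protein genes were chosen by symbol. The hosts and lists were chosen with earlier results of these data known. All 30 hosts matched GENCODE 29 by ID, 14 with the same start and end. Small RNA sequences come from GENCODE 29 and promoters from RefSeq (GRCh38.p14).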

Additional observations from a re-analysis of the deposited data

How the results depend on the processing

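Under all alternatives, 13 of 15 host calls held in NC1 minus KO1, 1 of 1 in NCO minus NC1 and 15 of 17 in NCO minus KO1. Counting each host under each alternative, 23, 20 and 14 values gained a call in these comparisons, 11, 0 and 7 lost it, and 5, 23 and 10 changed sign, all of the last for hosts not called in the fit reported above. The cause was not tested.

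Scaling shifted the balance of all genes. The share of calls that were higher was 61.3% in NC1 minus KO1, but 48.7% under TMM scaling, 47.1% under quantile normalization and 72.3% with mitochondrial genes removed. In NCO minus NC1 it was 41.5%, or 53.7% under quantile normalization and 69.9% with mitochondrial genes removed, where 1736 genes were higher in place of 770. In NCO minus KO1 it was 61.5%, or 48.9%, 49.6% and 78.2%. There the removal also moved the all-gene median from 0.08 to 0.19 and the host median from −0.47 to −0.33, and 1614 genes were lower in place of 2527. Host genes called in NC1 minus KO1 numbered 0 higher and 19 lower under TMM scaling, 0 and 17 under quantile normalization, and 2 (SNHG12 and SNHG16) and 14 with mitochondrial genes removed. In NCO minus KO1 they numbered 0 and 19, 0 and 21, and 0 and 16. Among the other lncRNA genes, 98 were higher and 263 lower in NC1 minus KO1 under TMM scaling. Quantile normalization gave 77 and 300, and removal of mitochondrial genes 141 and 186, next to 114 and 212 in the fit reported above. In NCO minus KO1 these lncRNA genes numbered 94 and 290, 79 and 342, and 174 and 184, next to 117 and 248.

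In NCO minus NC1, 2 hosts were called (0 higher, 2 lower) with at least 1 FPKM required in all 9 libraries, under TMM scaling, with plain moderation and with only the groups compared. Quantile normalization gave 6 (4 higher, 2 lower) and removal of mitochondrial genes 4 (2 higher, 2 lower). Without a filter 781 genes were called, 267 higher and 514 lower, and with only the groups compared 486 were higher.

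With the replicate number as a block, 1 host (SNHG12) was higher and 17 lower in NC1 minus KO1, 0 and 2 (SNHG9, SNHG16) in NCO minus NC1, where 506 of all genes were higher, and 0 and 17 in NCO minus KO1. Deviations from group means correlated at −0.101 to 0.0797 between libraries of the same number and at −0.0722 to 0.106 between others. The values thus showed no pairing by number, and whether libraries of the same number were handled together is not known.

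Leaving out 1 library at a time gave 0 to 1 hosts higher in NC1 minus KO1. In NCO minus NC1 it gave 1 to 3 hosts called, 0 to 2 higher and 1 to 2 lower, and 908 to 1708 genes called, 275 to 717 higher and 633 to 1032 lower, the lowest counts without NCO replicate 2. Single differences that changed sign in this way ranged, in NC1 minus KO1, from −0.0467 to 0.184 for SNHG10 and −0.262 to 0.183 for SNHG21. In NCO minus NC1 they ranged from −0.194 to 0.0162 for SNHG10, −0.099 to 0.0158 for SNHG14, −0.105 to 0.0322 for SNHG19, −0.0571 to 0.143 for SNHG20 and −0.267 to 0.0219 for SNHG22. In the same comparison the ranges were −0.115 to 0.609 for SNHG25, −0.185 to 0.033 for SNHG3, −0.0298 to 0.136 for SNHG30, −0.0213 to 0.0876 for SNHG32, −0.0176 to 0.0466 for SNHG6 and −0.0273 to 0.121 for SNHG7. In NCO minus KO1 they were −0.163 to 0.067 for SNHG10 and −0.0726 to 0.0979 for SNHG12. Other settings that changed a sign in NCO minus NC1 were quantile normalization for SNHG19 (0.0307) and SNHG8 (0.0147) and removal of mitochondrial genes for SNHG14 (0.0312) and SNHG19 (0.0153). In NC1 minus KO1, quantile normalization gave −0.0354 for SNHG10. In NCO minus KO1, removal of mitochondrial genes gave 0.0687 for SNHG10 and 0.0135 for SNHG6, quantile normalization 0.0808 for SNHG6 and −0.0253 for SNHG12, and TMM scaling −0.054 for SNHG12.

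Depth is unknown, so the counting error of low hosts is not known, and with 3 libraries per group the intervals of SNHG25, SNHG5 and SNHG22 are wide.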
